A study of Homo sapiens with 31 samples.

Results

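The mRNAs of 7 human translation factors were followed across 31 sequencing libraries of HEK293 T-REx, an embryonic kidney line built for inducible expression. They encode eIF2α (EIF2S1, ENST00000256383), eIF2β (EIF2S2, ENST00000374980), eIF2γ (EIF2S3, ENST00000253039), eIF5 (EIF5, ENST00000216554), eIF5B (EIF5B, ENST00000289371), eIF1A (EIF1AX, ENST00000379607) and eIF5A (EIF5A, ENST00000336458). Each was found by its Ensembl transcript ID and kept if the deposited length lay within 5 of its protein length minus 9. All 7 were found, and the deposited length was 9 below the protein length in every case, for example 463 for the 472 residues of eIF2γ. They are 7 of the 35498 transcripts that remained when neighbours with correlated counts were reduced to about 1 per locus. The 7 were always kept. There were 227264 transcripts listed and 94734 with any count. All 7 had enough counts to be tested in every comparison.

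In cap-dependent initiation, eIF2 carries the initiator tRNA to the small ribosomal subunit as a complex with GTP. The γ subunit binds GTP and the tRNA, the β subunit contacts eIF5 and the exchange factor eIF2B, and the α subunit is the one phosphorylated by the stress kinases, which lowers general initiation. eIF5 stimulates GTP hydrolysis by eIF2, eIF1A helps the small subunit scan and find the start codon, and eIF5B, itself a GTPase, joins the large subunit. eIF5A, which carries the amino acid hypusine, acts at ribosomes that have stalled and at termination. The mTORC1 kinase complex controls the translation of mRNAs that begin with a C and a run of pyrimidines, the 5′ terminal oligopyrimidine (TOP) motif, which LARP1 binds.

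The series addresses the RNA helicase eIF4A1, its paralog eIF4A2 and LARP1 under inhibition of mTORC1. Ribosome profiling, which counts RNA fragments protected by ribosomes (footprints), covered 3 genotypes: naive, EIF4A1 knockout (KO) and EIF4A2 KO. Per genotype there were 2 DMSO libraries, and the mTOR kinase inhibitor PP242 was given for 30 min at 1 or 10 µM with a single library per dose. RNA-seq covered naive and EIF4A1 KO cells without drug, with 2 libraries each, and no RNA-seq of PP242-treated or EIF4A2 KO cells was analysed here. These RNA-seq libraries were deposited as a separate set from the naive and EIF4A1 KO footprints. Whether both came from the same cultures is not stated, so footprints set against RNA may not be matched. RNA captured on streptavidin beads with SBP-eIF4A1 or SBP-eIF4A2 (SBP, streptavidin-binding peptide) was sequenced beside its input, with 2 libraries each. In SBP-eIF4A1 cells this was repeated after 72 h of control siRNA (2 input, 2 pulldown) or LARP1 siRNA (2 input, 1 pulldown). The labels do not say how many clones stand for a genotype or that replicates are separate cultures, so p-values measure the spread between libraries, which may be technical. No pulldown from cells without an SBP protein was analysed here, so RNA held by the beads alone is part of each pulldown.

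Counts summed over the 35498 transcripts were 2514007 to 6417695 per ribosome profiling library. They were 11888626 to 17639993 per pulldown or input library and 19704381 to 21628398 per RNA-seq library. Levels are given as CPM, counts scaled to library size, after TMM scaling within each assay, so each is relative to the other transcripts of its library. Less RNA per cell cannot be told apart from fewer cells expressing it. A change shared by all transcripts, such as an overall fall of footprints under PP242, would not show in these values. The targeted genes were checked first. EIF4A1 fell by 1.13 on the log2 scale in the EIF4A1 KO RNA (SE 0.027) and by 2.25 in the footprints (SE 0.056), with 943 and 937 CPM of RNA left against 2071 and 2058. EIF4A2 footprints were 61.5 and 62.4 CPM in the EIF4A2 KO DMSO libraries against 160.9 and 132.9 in naive cells. They were 746 and 714 in the EIF4A1 KO. LARP1 was 94.8 and 76.9 CPM in the siLARP1 inputs against 228.1 and 221.8 in the siControl inputs, and 226.2 in the siLARP1 pulldown against 481.7 and 480.7 in the siControl pulldowns. One library went against its label: the library labelled SBP-eIF4A1 siLARP1 input replicate 2 had 1828 CPM of EIF4A1 and 1058 of EIF4A2. Replicate 1 had 3095 and 292.8, while the SBP-eIF4A2 inputs had 1851 and 1902 of EIF4A1 and 987 and 1009 of EIF4A2. Results for the 7 factors after LARP1 knockdown are given with and without it.

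**Figure D1:**
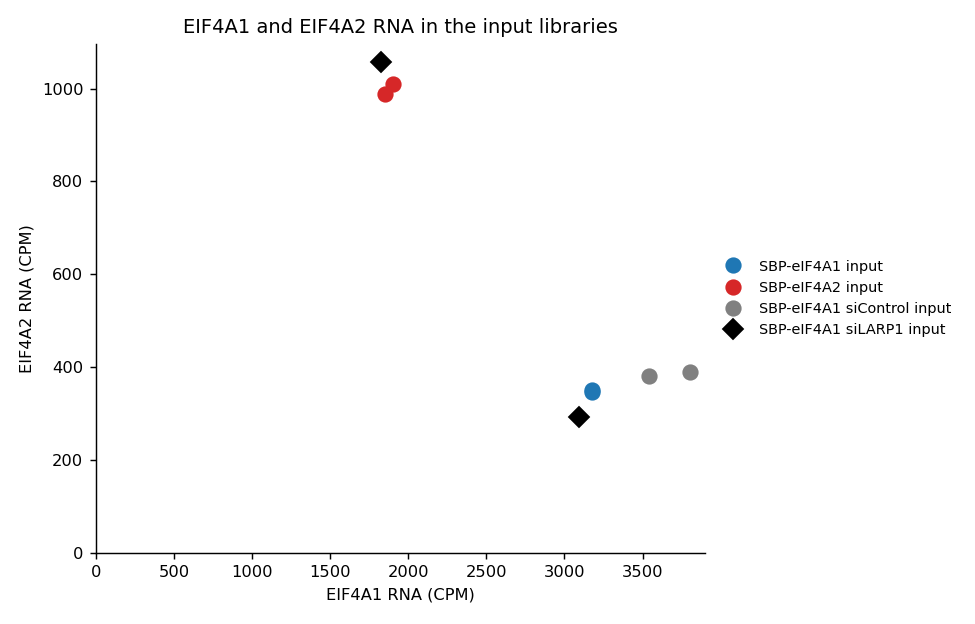
EIF4A1 against EIF4A2 RNA (CPM, linear axes) in each input library, 1 point per library, coloured by labelled group; the pulldown inputs and the siRNA inputs were scaled separately. The library labelled SBP-eIF4A1 siLARP1 input replicate 2, at 1828 and 1058, lies beside the SBP-eIF4A2 inputs.

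The genes lie, in GRCh38.p14 by RefSeq, at chr14:67360328-67386516 (EIF2S1), chr20:34088309-34112243 (EIF2S2), chrX:24054956-24078810 (EIF2S3), chr14:103334237-103345025 (EIF5), chr2:99337389-99401326 (EIF5B), chrX:20124525-20141838 (EIF1AX) and chr17:7306999-7312463 (EIF5A). By gene name, RefSeq holds coding copies EIF2S3B, EIF1AY and EIF5AL1, and it holds 7 pseudogenes of EIF2S2, 2 each of EIF2S3, EIF5 and EIF1AX, and 3 of EIF5A. The files do not state how reads that fit several loci were counted, so the counts of these 5 genes are uncertain to that extent. EIF2S1 and EIF5B had no such copy.

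Because the response to PP242 separated the eIF2 subunits, the first bases around the annotated start are shown for EIF2S3 and for EIF2A, a gene outside the 7 whose footprints moved most like those of EIF2S3. Beside them are 4 genes with no TOP-like start, among them EIF1, whose footprints also fell. Each line gives 15 bases either side of the RefSeq start, 5′ to 3′ on the gene's strand, and capitals mark a C at the annotated start with the unbroken pyrimidine run that follows it, where at least 4 pyrimidines follow. The windows are chrX:24054941-24054970 on the plus strand (EIF2S3), chr3:150546772-150546801 plus (EIF2A), chr14:67360313-67360342 plus (EIF2S1), chr2:99337374-99337403 plus (EIF5B), chrX:20141824-20141853 minus (EIF1AX) and chr17:41688870-41688899 plus (EIF1).
EIF2S3: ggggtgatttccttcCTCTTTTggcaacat
EIF2A: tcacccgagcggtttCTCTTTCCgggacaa
EIF2S1: gcgaggaggttccgcatgcgcggtggagtg
EIF5B: gcgcactgagaactcacaccatatgtgtcc
EIF1AX: gcaaagagtcgcggcgccatttgctgccgc
EIF1: aggcaccgcccctctgccccagtcactgag

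EIF2S3 opens with a run of 7 pyrimidines that begins with C, and EIF2A with a run of 8. Of the other factors, EIF2S1, EIF5B and EIF1AX had 0 of 1 such start each, EIF5 0 of 2 and EIF5A 0 of 6, while EIF2S2 had no entry in the table. Across the table, 1429 of 35116 starts (4.07%) met the same rule, as did 1404 of 27305 genes (5.14%) at any start. A match here is of letters at an annotated start, and the start used in these cells was not measured.

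In naive cells the factors differed widely in RNA level per coding length. RNA per 100 codons ran from 4.51 ± 0.24 CPM for EIF5B (SD, n = 2) through 38.2 ± 1.06 for EIF2S1 and 46.2 ± 1.27 for EIF5 to 105.3 ± 4.59 for EIF1AX. EIF2S2 at 122.4 ± 0.99, EIF2S3 at 135.7 ± 0.94 and EIF5A at 180.5 ± 5.50 were the most abundant. Among the subunits of the eIF2 trimer, EIF2S1 RNA was therefore the lowest, with EIF2S3 at 3.50 and 3.61 times its level per codon in the naive libraries. No neighbours in this order had overlapping libraries.

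Footprints per 100 codons in naive DMSO cells gave another order. EIF5A led with 1108 ± 24.7 CPM (SD, n = 2), followed by EIF1AX with 255.5 ± 15.6. EIF2S2 (141.2 ± 8.38) and EIF2S3 (137.6 ± 6.98) came next and did not differ beyond their spread, and EIF2S1 (74.1 ± 0.62), EIF5 (46.0 ± 0.55) and EIF5B (14.7 ± 0.34) were lowest. The ratio of mean footprint CPM to mean RNA CPM was 6.14 for EIF5A, 3.26 for EIF5B, 2.43 for EIF1AX, 1.94 for EIF2S1, 1.15 for EIF2S2, 1.01 for EIF2S3 and 0.996 for EIF5. EIF5A thus carried the most footprints per RNA in naive cells, and EIF5 and EIF2S3 about 1 per unit of RNA CPM.

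With both doses pooled, PP242 lowered the footprints of 1 eIF2 subunit, EIF2S3, by more than 2-fold in all 3 genotypes. EIF2S1 and EIF2S2 did not pass the test. EIF2S3 footprints in naive cells were 660.0 and 614 CPM in DMSO, 257 with 1 µM and 301 with 10 µM. EIF4A1 KO libraries were 672 and 649, then 319.6 and 332 at the lower and higher dose, and in EIF4A2 KO cells 784 and 816, then 297.5 and 355.5. Every PP242 library lay below every DMSO library, in all 3 genotypes, and the lower dose had the lower value each time.

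With both doses pooled against DMSO, EIF2S3 fell by 1.20 on the log2 scale in naive cells (SE 0.071, edgeR quasi-likelihood test, adjusted p = 2.62e-23), to 0.435 of the DMSO level. In EIF4A1 KO cells it fell by 1.02 (SE 0.070, edgeR adjusted p = 8.45e-20), to 0.494, and in EIF4A2 KO cells by 1.29 (SE 0.068, edgeR adjusted p = 4.03e-26), to 0.409. Among all transcripts tested, these changes stood at percentile 1.55, 1.46 and 1.15 from the lowest. For the difference between genotypes, EIF4A1 KO minus naive was 0.18 (SE 0.10, edgeR adjusted p = 0.330) and EIF4A1 KO minus EIF4A2 KO was 0.27 (SE 0.097, edgeR adjusted p = 0.0843). The latter was called without the low-count filter (0.29, adjusted p = 0.0403) and without the EIF4A2 KO 10 µM library (0.41, adjusted p = 0.00919). Under a dose score in place of the grouped doses, EIF2S3 was still called in naive cells (adjusted p = 0.0475) and EIF4A2 KO cells (0.0206), but not in EIF4A1 KO cells (0.169), and no change of the other 6 was called.

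EIF2S1 and EIF2S2 footprints moved far less. EIF2S1 was 225.3 and 228.0 CPM in naive DMSO cells, 234.5 at 1 µM and 235.2 at 10 µM. EIF2S2 was 477 and 438, then 443 and 452.4. In EIF4A1 KO cells both drug libraries lay below both DMSO libraries for each gene, at 195.1 and 209.7 against 221.7 and 224.1 for EIF2S1, and 377.8 and 364.7 against 425.2 and 408.9 for EIF2S2. The log2 changes in naive, EIF4A1 KO and EIF4A2 KO cells were 0.051, -0.13 and 0.12 for EIF2S1 and -0.032, -0.17 and -0.051 for EIF2S2, and none passed the test (edgeR adjusted p of 0.131 to 0.842).

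The balance of footprints among the eIF2 subunits moved accordingly. Per 100 codons, EIF2S3 had 1.94 and 1.78 times the footprints of EIF2S1 in naive DMSO cells, and 0.724 and 0.846 times at 1 and 10 µM. The same ratio went from 2.0 and 1.91 to 1.08 and 1.05 in EIF4A1 KO cells, and from 2.41 and 2.58 to 0.798 and 1.09 in EIF4A2 KO cells. Against EIF2S2, EIF2S3 went from 0.969 and 0.981 to 0.406 and 0.466 in naive cells. EIF2S2 over EIF2S1 stayed between 1.47 and 2.0 in all 12 libraries.

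**Figure D2:**
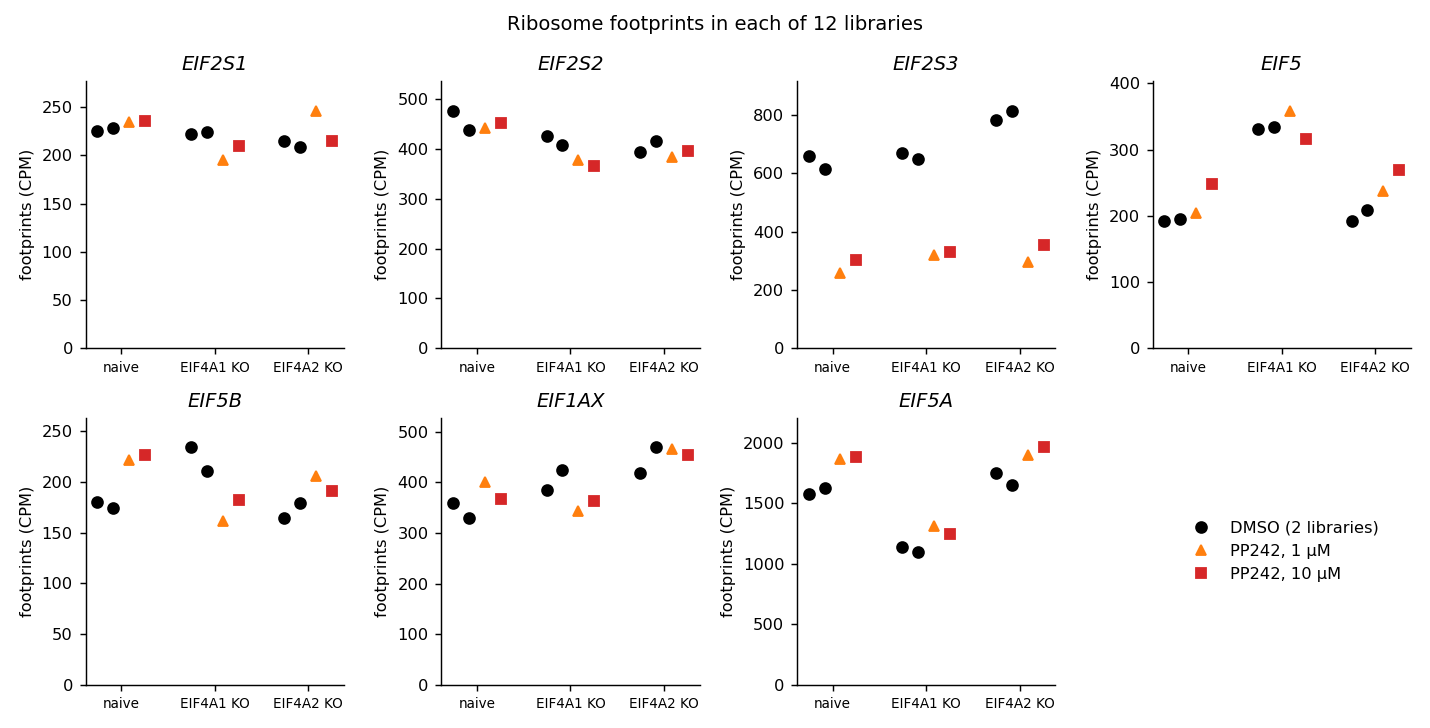
Ribosome footprints (CPM, linear axis from 0, a scale per gene) of the 7 factors in each of 12 libraries, by genotype; circles are DMSO, triangles 1 µM and squares 10 µM PP242. EIF2S3 alone has all PP242 libraries below all DMSO libraries in every genotype, and EIF5B moves up in naive and down in EIF4A1 KO cells.

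EIF5B, the GTPase of subunit joining, responded in opposite directions. In naive cells its footprints were 180.7 and 174.9 CPM in DMSO and 222.3 and 226.9 at 1 and 10 µM. In EIF4A1 KO cells they were 234.3 and 211.3 in DMSO and 161.6 and 182.7 with drug, and in EIF4A2 KO cells 164.3 and 179.2, then 205.7 and 191.7. PP242 libraries lay above DMSO in naive and EIF4A2 KO cells and below it in EIF4A1 KO cells, without overlap.

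EIF5B rose by 0.34 on the log2 scale in naive cells (SE 0.075, edgeR adjusted p = 0.00101) and fell by 0.37 in EIF4A1 KO cells (SE 0.079, edgeR adjusted p = 0.00099). In EIF4A2 KO cells the change was 0.21 (SE 0.075, edgeR adjusted p = 0.0567), which was called with all distinct transcripts (0.0495) or without the EIF4A1 KO 1 µM library (0.0496). That library is outside this comparison, so its removal altered only the shared spread, the scaling and the transcripts tested. The difference was tested directly: EIF4A1 KO minus naive was -0.70 (SE 0.11, edgeR adjusted p = 4.42e-06), and EIF4A1 KO minus EIF4A2 KO was -0.57 (SE 0.11, edgeR adjusted p = 0.000166). Under a dose score, EIF4A1 KO minus EIF4A2 KO was -0.26 and not called (edgeR adjusted p = 0.510). Leaving out any 1 library kept the first difference between -0.62 and -0.80 and called, but a dose score gave -0.36 (adjusted p = 0.316). The fall within EIF4A1 KO cells was -0.29 without DMSO replicate 1 (adjusted p = 0.146) or without the 1 µM library (0.0577).

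EIF1AX showed a smaller difference of the same sign. Its footprints were 360 and 330.0 CPM in naive DMSO cells and 399.8 and 366.9 at 1 and 10 µM, against 384 and 424 and then 343 and 364 in EIF4A1 KO cells. No change within a genotype passed the test (0.16, -0.19 and 0.052 on the log2 scale in naive, EIF4A1 KO and EIF4A2 KO cells, edgeR adjusted p of 0.103 to 0.702). EIF4A1 KO minus naive was -0.35 (SE 0.098, edgeR adjusted p = 0.0194), and a dose score gave -0.15 per step (edgeR adjusted p = 0.647). The call was also lost when any of 4 libraries was left out: naive DMSO replicate 2, naive 1 µM, EIF4A1 KO DMSO replicate 2 or EIF4A1 KO 1 µM.

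EIF5A rose slightly in each genotype. EIF5A went from 1581 and 1632 CPM to 1871 and 1883 at 1 and 10 µM in naive cells, from 1138 and 1101 to 1312 and 1250.0 in EIF4A1 KO cells, and from 1754 and 1655 to 1902 and 1963 in EIF4A2 KO cells. The drug libraries were above DMSO in each genotype, with log2 rises of 0.22, 0.19 and 0.18 (edgeR adjusted p = 0.00377, 0.0292 and 0.0209). These small rises rested on single libraries: the call was lost without DMSO replicate 1 in naive cells, without either DMSO replicate or the 1 µM library in EIF4A1 KO cells, and without DMSO replicate 2 or either drug library in EIF4A2 KO cells. EIF5 rose by 0.34 in EIF4A2 KO cells (SE 0.076, edgeR adjusted p = 0.000701), where it went from 191.5 and 209.1 CPM to 238.0 and 268.8, and the call was lost without DMSO replicate 1 or the 10 µM library. It changed by 0.20 in naive cells and 0.016 in EIF4A1 KO cells, which did not pass (edgeR adjusted p = 0.0949 and 0.941), though without the naive 1 µM library the naive change was called at 0.35 (0.0134). Tested directly, the EIF5 response in EIF4A2 KO minus naive cells was 0.14 (edgeR adjusted p = 0.901), and in EIF4A1 KO minus EIF4A2 KO cells -0.32 (SE 0.11, edgeR adjusted p = 0.0537). The latter was called with RLE scaling (0.0471) and when any of 5 libraries was left out (naive 1 or 10 µM, EIF4A1 KO 1 µM, EIF4A2 KO 1 µM or EIF4A2 KO DMSO replicate 2), at -0.33 to -0.41. The naive libraries are outside that comparison. Their removal altered only the shared spread, the scaling and the transcripts tested, and left the value at -0.33.

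In all, PP242 changed 3 of the 7 in naive cells, where 9.38% of all transcripts tested were called, 3 in EIF4A1 KO cells (6.01%) and 3 in EIF4A2 KO cells (11.7%). The differences between genotypes called 2 of 7 for EIF4A1 KO minus naive (6.06%) and 1 of 7 for EIF4A1 KO minus EIF4A2 KO (6.23%). For EIF4A2 KO minus naive, 0 of 7 were called by edgeR or by DESeq2, where 0.0683% of transcripts were called, and 0 had an unadjusted p under 0.05. Naive libraries, like those of each KO, enter more than 1 of these comparisons.

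**Figure D3:**
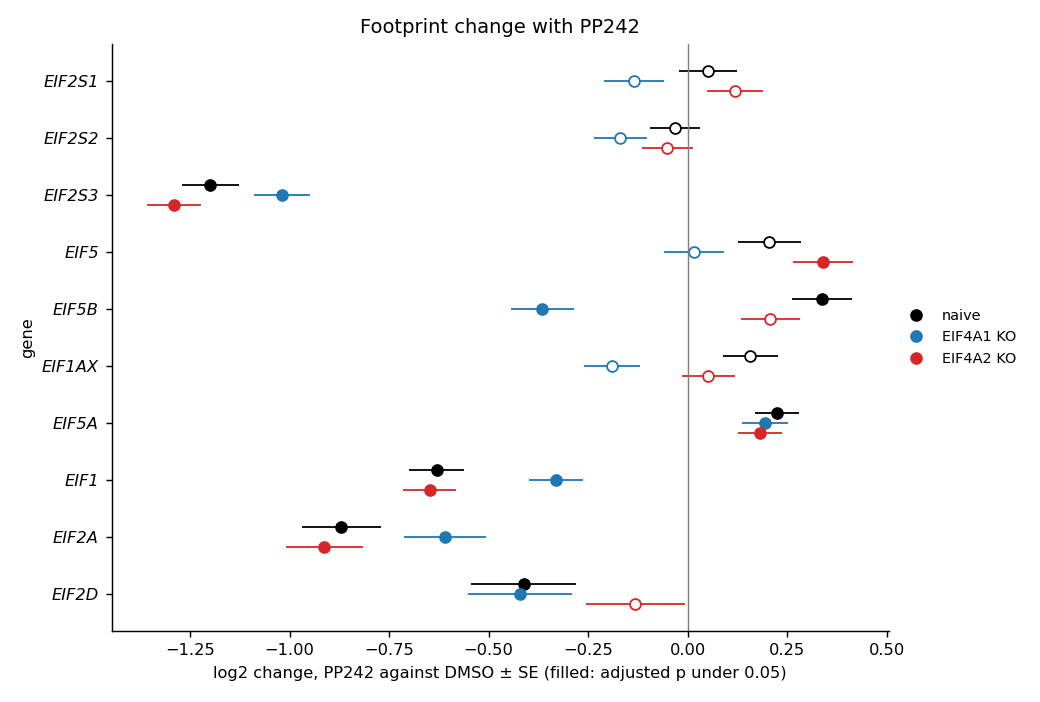
Log2 change of footprints with PP242 (1 and 10 µM together against DMSO) in naive, EIF4A1 KO and EIF4A2 KO cells. Shown are the 7 factors and 3 genes outside them, EIF1, EIF2A and EIF2D. Bars are 1 SE and filled points have an edgeR adjusted p under 0.05. EIF2S3 lies between -1.02 and -1.29 in the 3 genotypes, and EIF5B at 0.34 in naive but -0.37 in EIF4A1 KO cells.

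Without drug, EIF5 was higher and EIF5A lower in EIF4A1 KO than in naive cells, in RNA and footprints alike. The number of clones per genotype is not given, so the knockout and a difference between clones cannot be told apart. EIF5 RNA was 198.6 and 191.0 CPM in naive and 322.5 and 323.0 in EIF4A1 KO cells, and its footprints were 192.5 and 195.8 against 330.5 and 333.5. The KO libraries were higher in both assays, 1.66-fold in RNA (log2 0.73, SE 0.037, edgeR adjusted p = 8.13e-17) and 1.71-fold in footprints (log2 0.77, SE 0.069, edgeR adjusted p = 6.67e-18). The footprint change beyond that of RNA was 0.034 (SE 0.075, edgeR adjusted p = 0.862). Against EIF4A2 KO cells the footprints were also higher, by 0.73 (SE 0.070, edgeR adjusted p = 1.69e-16).

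EIF5A RNA was 267.4 and 256.1 CPM in naive and 207.8 and 213.2 in EIF4A1 KO cells, a fall to 0.804 (log2 -0.31, SE 0.038, edgeR adjusted p = 3.49e-08). Its footprints went from 1581 and 1632 to 1138 and 1101, a fall to 0.697 (log2 -0.52, SE 0.052, edgeR adjusted p = 1.64e-15). The footprints fell further than the RNA, by 0.22 (SE 0.061, edgeR adjusted p = 0.0102), and the ratio of footprint to RNA CPM went from 6.14 to 5.32. That further fall was no longer called without naive RNA replicate 2 (adjusted p = 0.0771) or EIF4A1 KO RNA replicate 2 (0.0959).

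EIF2S2 and EIF2S3 RNA fell in EIF4A1 KO cells, and the EIF2S3 footprints did not fall with the RNA. EIF2S3 RNA was 631.5 and 625.4 CPM in naive and 515.3 and 518.7 in KO cells (log2 -0.28, SE 0.031, edgeR adjusted p = 5.83e-09), while its footprints changed by 0.052 (SE 0.057, edgeR adjusted p = 0.567). The difference of the 2 changes was 0.32 (SE 0.063, edgeR adjusted p = 9.27e-05), and footprint over RNA went from 1.01 to 1.28. EIF2S2 RNA was 394.2 and 398.7 against 316.1 and 320.4 (log2 -0.32, SE 0.033, edgeR adjusted p = 3.17e-09), and its footprints changed by -0.13 (edgeR adjusted p = 0.113, or 0.0484 without naive DMSO replicate 2), with no called difference between the assays (0.17, edgeR adjusted p = 0.101). EIF2S1 RNA, at 119.1 and 114.5 against 104.4 and 109.7, was lower by 0.13 (edgeR adjusted p = 0.029), and its footprints changed by -0.025.

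EIF5B RNA changed by -0.050 (edgeR adjusted p = 0.549), from 56.7 and 52.6 to 54.1 and 51.4 CPM, with overlap. Its footprints rose by 0.33 (SE 0.075, edgeR adjusted p = 0.000372), from 180.7 and 174.9 to 234.3 and 211.3. The difference of the RNA and footprint changes was 0.37 (SE 0.093, edgeR adjusted p = 0.00385). The same EIF4A1 KO DMSO libraries enter the PP242 fall of EIF5B in EIF4A1 KO cells, so this footprint rise and that fall are not independent. Without EIF4A1 KO DMSO footprint replicate 1, the higher of the pair, the footprint change was 0.25 (adjusted p = 0.0785) and the difference between assays 0.24 (0.23). The difference between assays was also not called without naive DMSO footprint replicate 2 (0.30, adjusted p = 0.053).

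EIF1AX RNA rose by 0.15 (edgeR adjusted p = 0.00749) and its footprints by 0.23 (SE 0.065, edgeR adjusted p = 0.00493). The RNA calls of EIF1AX and EIF2S1 were lost with DESeq2 (adjusted p = 0.0538 and 0.162), and without naive or EIF4A1 KO RNA replicate 1, and that of EIF2S1 also without the low-count filter (0.0561). The footprint call of EIF1AX was lost without DMSO replicate 2 of naive (0.148) or EIF4A1 KO cells (0.189). In RNA, 6 of 7 factors were called, 2 higher and 4 lower, where 36.5% of all transcripts were called, 18.1% higher and 18.4% lower. In footprints 4 of 7 were called (22.7%), and in the difference between the assays 3 of 7 (9.47%).

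In EIF4A2 KO cells the called differences from naive cells were in eIF2γ, eIF1A and eIF2β. The EIF4A2 KO footprint libraries were deposited as a separate set from those of naive and EIF4A1 KO cells. Whether they were prepared together is not stated, so genotype and experiment cannot be told apart. The same holds for comparisons between the knockouts and for PP242 differences with EIF4A2 KO cells. EIF2S3 footprints were 784 and 816 CPM against 660.0 and 614 in naive DMSO cells, higher by 0.33 (SE 0.054, edgeR adjusted p = 1.60e-06). EIF1AX went from 360 and 330.0 to 418 and 469 (log2 0.36, SE 0.061, edgeR adjusted p = 2.00e-06). Neither pair overlapped. EIF2S2 was lower by 0.18 (edgeR adjusted p = 0.0419), a call lost under DESeq2, under another scaling (RLE) or on removal of any of 3 libraries (naive DMSO replicate 1 and both EIF4A2 KO DMSO replicates).

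EIF5 and EIF5A, the factors whose footprints moved most in EIF4A1 KO cells, changed by 0.046 (edgeR adjusted p = 0.785) and 0.085 (0.342) in EIF4A2 KO cells. Directly compared, EIF4A1 KO minus EIF4A2 KO was 0.73 for EIF5, 0.38 for EIF5B, -0.28 for EIF2S3 and -0.61 for EIF5A (edgeR adjusted p of 1.58e-19 to 5.00e-05). For EIF4A2 KO against naive cells 3 of 7 were called (8.04% of all transcripts), and for the 2 knockouts against each other 4 of 7 (22.6%). These comparisons share libraries.

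**Figure D4:**
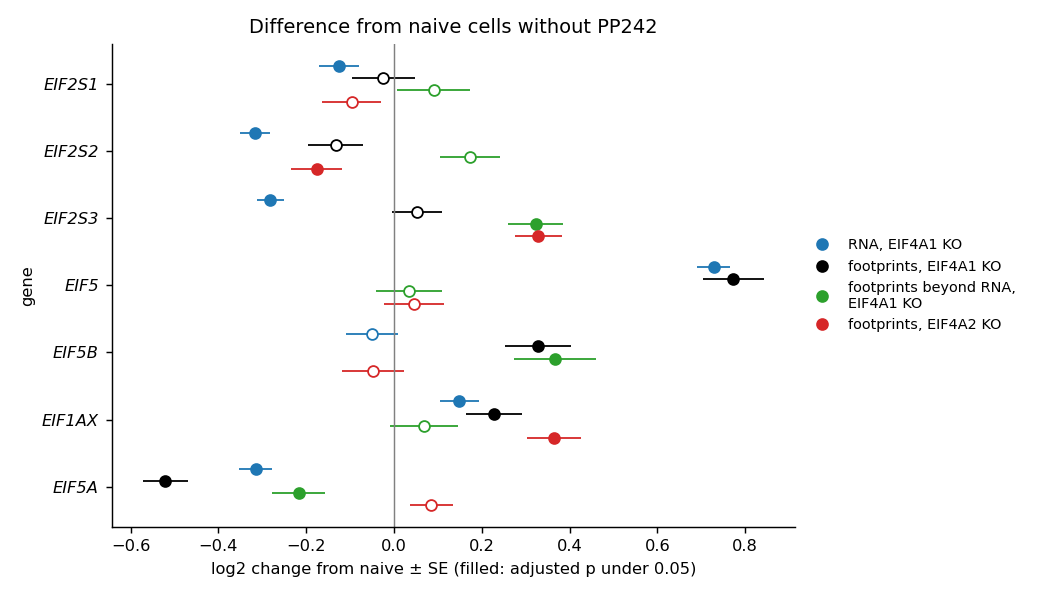
Log2 change of each factor without drug, as RNA, as footprints and as the footprint change beyond RNA in EIF4A1 KO against naive cells, and as footprints in EIF4A2 KO against naive cells; bars are 1 SE and filled points have an edgeR adjusted p under 0.05. EIF5 is at 0.73 and 0.77 in the EIF4A1 KO and at 0.046 in the EIF4A2 KO, and EIF5A is at -0.31 and -0.52.

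Relative to input, nearly all of the factor mRNAs were depleted from both eIF4A pulldowns, EIF5B and EIF2S1 most. EIF5B was at 31.9 and 31.5 CPM in the SBP-eIF4A1 inputs and 6.1 and 6.1 in the pulldowns, which held 70 and 75 counts. With SBP-eIF4A2 it was at 36.7 and 28.1 in input and 7.8 and 3.9 in pulldown. It was left at 0.193 and 0.180 of input (log2 -2.37, SE 0.21, and -2.47, SE 0.20, edgeR adjusted p = 5.10e-08 and 9.80e-09).

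EIF2S1 was at 73.4 and 73.5 CPM in the SBP-eIF4A1 inputs against 32.6 and 32.5 in the pulldowns, and at 78.8 and 76.8 against 25.1 and 28.0 with SBP-eIF4A2. Its log2 changes were -1.17 (SE 0.078, edgeR adjusted p = 1.17e-09) and -1.55 (SE 0.075, edgeR adjusted p = 2.09e-11). EIF1AX followed at -0.78 and -1.15, EIF2S2 at -0.52 and -1.14, and EIF5A at -0.25 and -0.82 for SBP-eIF4A1 and SBP-eIF4A2.

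EIF2S3 and EIF5 were the least depleted. EIF2S3 was at 967 and 1016 CPM against 860.0 and 853 with SBP-eIF4A1 (log2 -0.21, SE 0.055, edgeR adjusted p = 0.0034) and at 615 and 659 against 479.5 and 512 with SBP-eIF4A2 (log2 -0.36, SE 0.055, edgeR adjusted p = 2.31e-05). EIF5 was at 148.9 and 144.4 against 163.3 and 149.9 with SBP-eIF4A1, which did not pass the test (log2 0.095, SE 0.060, edgeR adjusted p = 0.193), and was lower by 0.20 with SBP-eIF4A2 (edgeR adjusted p = 0.00568, or 0.0504 without SBP-eIF4A2 input replicate 1). So 6 of 7 were lower in the SBP-eIF4A1 pulldown, where 55.4% of all transcripts were called and 26.7% were called lower, and 7 of 7 in the SBP-eIF4A2 pulldown (59.8% called, 30% lower). The median change of the factors was -0.52 and -1.14, beside 0.036 and 0.025 over all transcripts tested.

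The depletion was stronger with SBP-eIF4A2 for 5 of the 7, where 15.7% of all transcripts were called, 10.4% in that direction. Replicates varied most in the SBP-eIF4A2 pulldown, with a chi-square per degree of freedom of 7.33. It was 1.62 in the SBP-eIF4A2 input, and 1.53 and 1.97 in the SBP-eIF4A1 input and pulldown. All 8 libraries share 1 estimate of the spread, which may be too small for the SBP-eIF4A2 pulldown. The enrichment with SBP-eIF4A1 minus that with SBP-eIF4A2 was 0.63 for EIF2S2 (SE 0.082, edgeR adjusted p = 5.81e-05) and 0.58 for EIF5A (SE 0.073, edgeR adjusted p = 3.93e-05), and both stayed called without any 1 library and with DESeq2. It was 0.37 for EIF2S1 (edgeR adjusted p = 0.0275), 0.36 for EIF1AX (0.0222) and 0.30 for EIF5 (0.0203). These last 3 calls were lost when 1 library was left out, in 6, 5 and 5 of the 8 cases, and those of EIF2S1 and EIF1AX also with DESeq2. For EIF2S1 they were any input or either SBP-eIF4A1 pulldown; for EIF1AX both SBP-eIF4A2 inputs, both SBP-eIF4A1 pulldowns and SBP-eIF4A1 input replicate 1; for EIF5 any input and SBP-eIF4A1 pulldown replicate 1. EIF2S3 (0.15, edgeR adjusted p = 0.225) and EIF5B (0.10, edgeR adjusted p = 0.883) did not pass, but without SBP-eIF4A2 pulldown replicate 2 and replicate 1, respectively, they were called at 0.20 and 0.67. For EIF5B the sign turned without SBP-eIF4A2 pulldown replicate 2 (-0.33, adjusted p = 0.253) or SBP-eIF4A2 input replicate 1 (-0.10, adjusted p = 0.915), so its direction rests on single libraries.

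**Figure D5:**
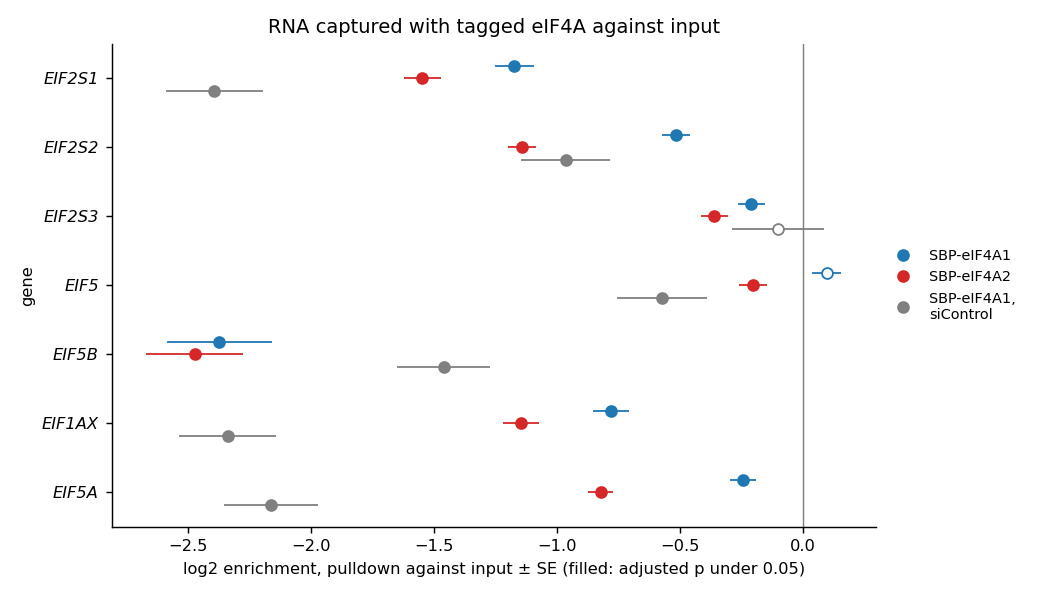
Log2 change from input to pulldown of each factor for SBP-eIF4A1, SBP-eIF4A2 and SBP-eIF4A1 after control siRNA; bars are 1 SE and filled points have an edgeR adjusted p under 0.05. EIF5B is lowest with both proteins without siRNA, at -2.37 and -2.47, and EIF2S3 and EIF5 lie nearest to 0.

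After control siRNA, the SBP-eIF4A1 pulldown again held less of 6 of the 7 mRNAs than its input, where 49.3% of transcripts were called and 24.1% were called lower. EIF2S1 was at 127.8 and 149.0 CPM in input and 25.5 and 27.2 in pulldown (log2 -2.39, SE 0.20, edgeR adjusted p = 2.15e-13). EIF1AX at -2.34 and EIF5A at -2.16 changed by nearly as much, followed by EIF5B at -1.46, EIF2S2 at -0.97 and EIF5 at -0.57. EIF2S3, at 581 and 607 against 534 and 573, changed by -0.10 (SE 0.19, edgeR adjusted p = 0.673). The EIF5 call was lost without input replicate 2 (adjusted p = 0.121) or pulldown replicate 1 (0.0777). The siRNA libraries were scaled apart from the other pulldowns, so the sizes in the 2 experiments were not tested against each other.

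LARP1 knockdown changed none of the 7 in input RNA by the test: 0 of 7 were called by edgeR and 0 by DESeq2, and 1 had an unadjusted p under 0.05, where 0.517% of transcripts were called. EIF2S3 was at 581 and 607 CPM after control siRNA and at 590.4 and 387 after LARP1 siRNA, the last being the library that went against its label. Its change was -0.28 (SE 0.19, edgeR adjusted p = 0.591) with that library and -0.0082 (SE 0.19) without it. EIF5 had the largest change, -0.41 (edgeR adjusted p = 0.337) with that library and -0.33 without it. Without it, 18 transcripts in place of 138 and 0 of the 7 were called, and the other changes lay between -0.29 for EIF2S1 and -0.00035 for EIF5A.

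The siLARP1 pulldown library held 413.6 CPM of EIF2S3, 20.7 of EIF2S1, 243 of EIF2S2, 180.7 of EIF5, 45.1 of EIF5B, 28.2 of EIF1AX and 90.8 of EIF5A. All 7 values of this 1 library lay below both siControl pulldowns, but the share of all transcripts that did so was not counted. The input changes of the 7 after LARP1 siRNA were negative too, with a median of -0.28 beside 0.0099 over all transcripts. Pulldown levels alone are thus no measure of capture. The change of enrichment after LARP1 knockdown, with the lone pulldown library assumed to vary like the other groups, was called for 0 of 7 (edgeR; 0 by DESeq2; 0 with an unadjusted p under 0.05; 0% of all transcripts). It was -0.14 for EIF2S3 (SE 0.29), and -0.41 (SE 0.27) without the library labelled siLARP1 input replicate 2, which likewise did not pass. Without that library the other changes were -0.32 for EIF5B, -0.24 for EIF5A, -0.16 for EIF1AX, -0.13 for EIF2S2, -0.062 for EIF2S1 and 0.0094 for EIF5, and 0 of 7 were called or had an unadjusted p under 0.05. With it, the 7 changes lay between -0.27 and 0.094.

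The other genes of the pathway were 26 regulators, partners and relatives of these factors. With PP242, 2 rose and 3 fell of 26 in naive cells, 0 rose and 3 fell in EIF4A1 KO cells, and 3 rose and 3 fell in EIF4A2 KO cells, with medians of -0.0052, -0.083 and 0.018 beside 0.0045, 0.0093 and 0.013 over all transcripts. Of all transcripts tested, 9.38%, 6.01% and 11.7% were called in these genotypes. EIF2A, which can deliver initiator tRNA without GTP, went from 115.8 and 108.6 CPM to 60.0 and 63.1 at 1 and 10 µM in naive cells (log2 -0.87, SE 0.098, edgeR adjusted p = 8.81e-11). EIF1, which guards start codon choice together with eIF1A, went from 398.2 and 409.6 to 250.7 and 272.8 (log2 -0.63, SE 0.068, edgeR adjusted p = 1.61e-11). In the EIF4A1 and EIF4A2 knockouts EIF2A fell by 0.61 and 0.91, and EIF1 by 0.33 and 0.65. EIF2D, whose start met the TOP-like rule as well, fell by 0.41 in naive and 0.42 in EIF4A1 KO cells (edgeR adjusted p = 0.0326 and 0.0379), and its change of -0.13 in EIF4A2 KO cells did not pass (0.585). The third gene that fell in EIF4A2 KO cells was DHPS, the first enzyme of hypusine synthesis (-0.32, edgeR adjusted p = 0.015).

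In EIF4A1 KO RNA 8 of the 26 rose and 6 fell, with a median of -0.040 beside -0.0025 over all transcripts. Of all transcripts tested, 18.1% were called higher and 18.4% lower. The largest called changes were in PPP1R15A, the subunit that directs dephosphorylation of eIF2α (1.06), EIF1B, a paralog of EIF1 (1.06), and EIF5A2, a paralog of EIF5A (0.93). In footprints, where 22.7% of all transcripts were called, 7 rose and 3 fell, led by PPP1R15A (0.85), EIF1B (0.78) and the eIF2α kinase EIF2AK3 (0.71). The footprint change beyond RNA was called in 2 upward and 1 downward, where 9.47% of all transcripts were called. Upward were EIF2AK2 (0.44) and EIF2AK4 (0.43), both eIF2α kinases. Downward was DOHH, the enzyme that completes hypusine on eIF5A (-1.34). In EIF4A2 KO footprints, where 8.04% of all transcripts were called, 1 rose and 2 fell: EIF2AK2 (0.24), DOHH (-0.83) and EIF6 (-0.50).

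In the SBP-eIF4A1 pulldown 8 of 26 were higher and 10 lower, where 28.7% and 26.7% of all transcripts were, with a median of 0.038. With SBP-eIF4A2 6 were higher and 13 lower, where 29.8% and 30% of all transcripts were, with a median of -0.35. The largest called changes with SBP-eIF4A1 were EIF2AK2 (-1.82), the ribosome recycling factor ABCE1 (-1.56) and PPP1R15A (1.50), and with SBP-eIF4A2 EIF2AK2 (-2.48), MCTS1 (-2.16) and ABCE1 (-2.11). After control siRNA 5 were higher and 15 lower, beside 25.2% and 24.1% of all transcripts, led by CDC123, an assembly factor of eIF2 (-2.18), EIF2B3 (-2.09) and BZW1 (-1.96). After LARP1 knockdown 0 of 26 were called in input or in enrichment (edgeR), and 6 and 0 had an unadjusted p under 0.05. Of all transcripts tested, 0.517% were called in input and 0% in enrichment. Without the library labelled siLARP1 input replicate 2, 0 of 26 were called in either, and 6 and 2 had an unadjusted p under 0.05.

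Across the 12 ribosome profiling libraries, the footprint pattern most like that of EIF2S3 among 32 candidates was that of EIF2A (Pearson r = 0.92 of log2 CPM with a pseudocount of 0.5). For the other factors it was CDC123 for EIF2S2 (0.87), EIF2AK1 for EIF5A (0.86), BZW1 for EIF5 (0.81), EIF2AK2 for EIF1AX (0.79), and ABCE1 for EIF2S1 (0.71) and for EIF5B (0.66). Among the eIF2 subunits, r was 0.47 for EIF2S1 with EIF2S2, 0.23 for EIF2S2 with EIF2S3 and -0.21 for EIF2S1 with EIF2S3. These values describe 12 libraries that share genotypes and drug treatment, and carry no test.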

How the data were processed

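The authors deposited 1 file per library with whole-number read counts per Ensembl transcript, unscaled, and a length per transcript whose unit is not stated. Per the submitters' processing notes, CASAVA 1.8, STAR 2.7.0a and hg38 were used. The annotation release, counting tool and treatment of multi-mapping reads are not given in the sources used here. Ribosome profiling libraries and stranded mRNA libraries (RNA-seq and pulldown) were made as the labels' protocols describe.

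Identical count vectors were merged to 77343 distinct transcripts. In order of total count, a transcript was dropped when its log2 CPM (pseudocount 0.5) correlated at 0.9 or more with a kept transcript within 10 rows, which left 35498. Library sizes were sums over these. Lengths of the 26 pathway genes and 3 targeted genes were compared with known coding lengths written down after the files had been seen, because no protein table was given, in place of the RefSeq check that had been planned. All matched with the same offset of 9.

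Tests used edgeR 4.0.16 (R 4.3.3, limma 3.58.1) on TMM-scaled counts that passed filterByExpr (at least 10 counts, total of at least 15) and two-sided quasi-likelihood tests. Benjamini-Hochberg adjustment ran over all transcripts tested in a comparison, and a call is an adjusted p under 0.05. SE is the absolute log2 change over the root of F. The fits held the 4 RNA-seq libraries, the 6 DMSO footprint libraries, RNA-seq with DMSO footprints of the naive and EIF4A1 KO genotypes (8), all 12 footprint libraries, the 8 input and pulldown libraries made without siRNA, and the 7 made with it. The procedure was tested on simulated data. Alternatives were RLE scaling, DESeq2 1.42.0, no low-count filter, all distinct transcripts, a dose score (0, 1 and 2 for DMSO, 1 and 10 µM), each library left out in turn, and the replicate number as a block. A dose-score value is the log2 change per step of a straight line over the score. A crossed block was added after seeing the data.

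The 7 factors and the pathway list were chosen with earlier results of these data known, as was the choice to pool both PP242 doses. All 7 are named in each comparison. Pathway genes are named when called and among the 3 largest absolute changes of the list in that comparison, and likeness takes the highest r among the other factors and pathway genes. EIF1 was also kept in the start sequences as a gene that fell without a TOP-like start, chosen after its values were seen. Start sequences and coordinates are from RefSeq, GRCh38.p14.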

Additional observations from a re-analysis of the deposited data

Results flagged for a closer look

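For each result here, 2 groups' effects differed by a direct test (edgeR, adjusted p under 0.05). The PP242 response in EIF4A1 KO minus naive cells was -0.70 for EIF5B, -0.35 for EIF1AX and 0.30 for EIF1 (SE 0.11, 0.098 and 0.096, edgeR adjusted p = 4.42e-06, 0.0194 and 0.0466). In EIF4A1 KO minus EIF4A2 KO cells it was -0.57 for EIF5B, 0.32 for EIF1, 0.46 for DHPS and -0.31 for ABCE1 (edgeR adjusted p = 0.000166, 0.0296, 0.0394 and 0.0379).

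The change from input to pulldown, SBP-eIF4A1 minus SBP-eIF4A2, was 0.37 for EIF2S1, 0.63 for EIF2S2, 0.30 for EIF5, 0.36 for EIF1AX and 0.58 for EIF5A. Among pathway genes, the 3 largest such differences were 1.09 for MCTS1, a partner of DENR in tRNA recycling after termination, 0.92 for EIF1B and 0.81 for CDC123 (SE 0.23, 0.25 and 0.10, edgeR adjusted p = 0.00324, 0.0178 and 5.25e-05). All of these were less depleted, or more enriched, with SBP-eIF4A1. The SBP-eIF4A2 and SBP-eIF4A1 experiments were deposited as separate sets of libraries, and whether they were prepared together is not stated, so the protein and the experiment cannot be told apart.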

How the results depend on the processing

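Of the values for single factors under alternatives, 1514 kept direction and side of the threshold, 66 lost the call, 15 gained it and 36 changed sign. The 1514 include uncalled results that stayed uncalled. They also include fits that left out a library the comparison does not use, which could alter little. The tally is thus no measure of how stable the calls are. The changes of sign were in 21 results, none of which was called in the fit as designed. Leaving out each library in turn, these ran from -0.10 to 0.0062 for EIF5B in EIF4A1 KO RNA, -0.0035 to 0.10 for EIF2S3 in EIF4A1 KO footprints, -0.12 to 0.013 for EIF5B and -0.024 to 0.11 for EIF5 in EIF4A2 KO footprints, and -0.027 to 0.068 for EIF5 and -0.048 to 0.13 for EIF1AX in footprints beyond RNA. With PP242 they ran from -0.091 to 0.033 for EIF2S2 in naive cells, -0.074 to 0.11 for EIF5 in EIF4A1 KO cells and -0.031 to 0.14 for EIF1AX in EIF4A2 KO cells. For the PP242 differences they ran, in EIF4A2 KO minus naive cells, from -0.030 to 0.16 for EIF2S1, -0.080 to 0.044 for EIF2S2, -0.23 to 0.032 for EIF2S3 and -0.0070 to 0.27 for EIF5, and for EIF5A from -0.063 to 0.0061 in EIF4A1 KO minus naive and -0.028 to 0.055 in EIF4A1 KO minus EIF4A2 KO cells. They ran from -0.33 to 0.67 for EIF5B in the pulldown difference, -0.14 to 0.054 for EIF5A in siLARP1 input and, in siLARP1 enrichment, -0.27 to 0.071 for EIF2S2, -0.41 to 0.18 for EIF2S3, -0.019 to 0.22 for EIF5 and -0.16 to 0.20 for EIF1AX. The dose score, with values per step, also turned EIF5 in EIF4A1 KO cells (-0.025) and EIF2S1 in EIF4A2 KO minus naive cells (-0.00042). It turned EIF5A in EIF4A1 KO minus EIF4A2 KO cells as well (-0.014). The replicate block turned EIF1AX in siLARP1 enrichment (-0.032).

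The number of called transcripts also moved. With DESeq2 it was 5441 in RNA, 2204, 523 and 2265 in DMSO footprints (EIF4A1 KO, EIF4A2 KO, and one against the other), 1132, 740 and 1458 with PP242 (naive, EIF4A1 KO, EIF4A2 KO), 690, 7 and 765 for the PP242 differences, and 369 in siLARP1 input (117 up, 252 down, against 85 and 53), and 3 factors in place of 5 were called in the pulldown difference. With all distinct transcripts it was 26611 in RNA, 13443, 4696 and 13634 in DMSO footprints, 7223 for footprints beyond RNA, 6342, 3739 and 7791 with PP242, 3684, 56 and 3762 for its differences, 42029, 44799 and 13212 in the pulldowns and their difference, 37604 after control siRNA and 618 in siLARP1 input, since more transcripts were tested.

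Without the low-count filter, 28 transcripts were called in the PP242 difference of EIF4A2 KO and naive cells, 398 in siLARP1 input and 1 in siLARP1 enrichment, and 2 factors in the PP242 difference of the knockouts, as with RLE scaling (2). Under the dose score 288, 0 and 448 transcripts and 1, 0 and 1 factors were called with PP242, and 2, 0 and 1 transcripts and 0 factors for its differences.

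Replicate numbers were shared between groups, but same-numbered libraries did not deviate together (r of -0.16 to 0.045), except in the siControl input and pulldown (0.49). The fits as designed took no numbers as pairs. For the siControl pulldown and the siLARP1 enrichment they thus ignored that shared deviation, which the replicate block includes. With the replicate block, the counts were 9013 in RNA, 4036, 1143 and 4014 in DMSO footprints, 2012 beyond RNA, 14504, 15685 and 4045 in the pulldowns, 13442 after control siRNA, 128 in siLARP1 input and 0 in enrichment; EIF2S2 in EIF4A2 KO footprints (adjusted p = 0.106) was the 1 factor call it ended. Crossed numbers gave 1819 in EIF4A2 KO footprints and 360 in siLARP1 input.

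Leaving out each library in turn gave 7392 to 8287 called transcripts in RNA (4 to 6 factors), 2564 to 4606, 783 to 1643 and 2657 to 4430 in DMSO footprints (3 to 4, 2 to 3 and 4 to 5), 1514 to 2467 beyond RNA (2 to 3), 868 to 1972, 443 to 1268 and 1470 to 2448 with PP242 (2 to 4, 1 to 3 and 1 to 4), 646 to 1374, 4 to 40 and 590 to 1308 for its differences (1 to 2, 0 and 1 to 2), 11907 to 17181, 12699 to 17996 and 2379 to 7837 in the pulldowns and their difference (6, 6 to 7 and 2 to 6), 9992 to 13488 after control siRNA (5 to 6), 18 to 339 in siLARP1 input (18 without siControl input replicate 2 or siLARP1 input replicate 2, 339 without siControl pulldown replicate 2) and 0 to 7 in enrichment (0 factors in both). Leaving out the lone siLARP1 pulldown gives no enrichment value. The cause of these shifts was not tested. Depth limits EIF5B in the pulldowns most, at 70 and 75 counts with SBP-eIF4A1.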
